A study of Mus musculus with 2 samples.

Results

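The genes described here encode the core machinery of cell division: cyclins and their kinases, the factors that load and fire replication origins, the enzymes that supply deoxynucleotides, and the proteins of the mitotic spindle and its checkpoint. They are 37 genes taken as a list by name, with no threshold on their values, among 31791 gene names on the array. Each was found by its gene name among the gene spots of both arrays and represented by its brightest probe. Of the 37 genes, 35 had a probe well above background in the RNA of at least 1 genotype on both arrays. Ccne2, a cyclin E, and Aurkb, an Aurora kinase, were not well above background in any of the 4 RNAs, so the filter left them out of the counts. Without the filter their log2 ratios were 0.03 and -0.06 for Ccne2 and 0.09 and 0.07 for Aurkb.

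The RNA came from dissected ureters of NMRI mouse embryos at E18.5, shortly before birth. The ureters labelled cDKO came from embryos with the Cre allele Tbx18(cre/+), with Tbx2(fl/fl) and also with Tbx3(fl/fl). Control embryos were Tbx18(+/+), with Tbx2(fl/?) and also with Tbx3(fl/?), so they carried floxed alleles too and lacked the Cre allele. The Cre recombinase is driven from the Tbx18 locus, which is active in the ureteric mesenchyme, so the epithelium and other cells of the organ are not its target. The 2-colour arrays each held both genotypes. The array of male embryos had cDKO RNA in AlexaFluor647 (red) and control RNA in AlexaFluor555 (green), and the array of female embryos had the dyes exchanged. Sex, dye and replicate therefore cannot be told apart, and both arrays are given separately throughout. Nothing in the labels gives the number of embryos behind an RNA or says that the RNAs were separate pools. The p-values therefore rest on the spread between 2 ratios, which may be technical. For each gene limma takes that spread mostly from all kept probes (1 residual against 13.9 prior degrees of freedom).

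A cell that enters the cycle first raises D-type cyclins, which with Cdk4 and Cdk6 phosphorylate the retinoblastoma protein and release E2F factors. E2F factors switch on cyclin E and the replication genes, and Cdc6 and Cdt1 load the Mcm helicase onto origins. Later genes, such as those of cyclins A and B, the spindle motors and Cdc20, rise toward mitosis. In the fetal ureter dividing cells lie in the mesenchyme and in the epithelium, and a bulk sample mixes them: a change in the number of dividing cells and a change in RNA per cell cannot be told apart here.

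The probes of the targeted genes did not show a loss. Tbx2 rose, with log2 ratios of 1.04 (male) and 0.44 (female) for cDKO over control (limma, adjusted p = 0.0273), and Tbx3 rose, with 0.78 and 0.55 (adjusted p = 0.0305). Ratios from the scanner's processed signals did not pass (limma, adjusted p = 0.268 for Tbx2 and 0.256 for Tbx3). Tbx2 also did not pass with a background offset of 0, under median centring, without the filter on dim probes or with the deposited value table. Tbx3 did not pass in those settings either, except without the filter (adjusted p = 0.0476). The labels do not give the floxed exons, and a probe outside the deleted part checks nothing, so directions are those of the RNA labelled cDKO. In the female array the Y-linked genes Ddx3y and Eif2s3y stood at processed signals of 359.6 and 491.2 in the cDKO RNA, which is 12.6% and 9.52% of their male cDKO signals, while the control RNA of that array had neither well above background. The female cDKO RNA goes against its label in this respect, and values from the male array alone are those without it. Smooth muscle markers separated the genotypes on both arrays: 7 of 8 fell (limma), against 2.27% of all genes called lower. Their summed processed signals were 115652 (male) and 70949 (female) in cDKO RNA against 595196 and 360836 in control RNA. All 8 smooth muscle markers, all 8 mesenchymal and all 14 urothelial ones were well above background in all 4 RNAs, so the defining markers of the labelled tissue were present.

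No cell cycle gene passed the test in either direction. Of the 35 measured genes 0 were called higher (limma, adjusted p under 0.05, background 2.18% of 23349 genes) and 0 were called lower (background 2.27%). At an unadjusted p under 0.05, 7 were higher (Cdc20, Mcm2, Cdt1, Ccnd2, Mcm6, Ccne1 and Birc5) and 0 were lower, against 9.64% and 6.4% of all genes. With an intensity trend in the variance 3 genes passed upward (background 3.99%) and 0 downward (2.84%), and with robust eBayes 1 passed upward (2.66%) and 0 downward (2.51%). The 95% interval of a gene's log2 ratio reached 0.356 to either side at the median. These intervals hold for the 2 ratios as normalized with loess, and they do not bound a change between embryos. No interval reached beyond 0.909 above 0, the upper bound of Cdc20, or beyond -0.51 below 0, the lower bound of Bub1.

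The signs leaned upward without passing that test. The mean log2 ratio of cDKO over control was above 0 for 30 of the 35 genes (background 50.9%), with a median of 0.17 against 0.0047 over all genes. On both arrays 18 genes were higher in cDKO RNA (51.4%, background 31.8%), and 0 were lower on both (background 28.0%). By array the median was 0.077 (male) and 0.27 (female), against 0.0036 and 0.018 over all genes. Pairs of values without a label are for males and then for females. Members of the cell cycle set are regulated together, so these counts are not independent observations. Processed signals come from the same spots and are on each probe's own arbitrary scale. In 12 genes both cDKO RNAs lay above both control RNAs (34.3%, background 11.8%), and in 0 genes did both lie below (background 7.54%). This overlap rule, also used below, sets signals of different arrays side by side. The male array was brighter, with a median log2 of male over female signal of 0.41 in cDKO RNA and 0.37 in control RNA. Overlap therefore depends partly on the array: Mcm3 and Cdk4 were higher on both arrays and still overlapped.

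**Figure D1:**
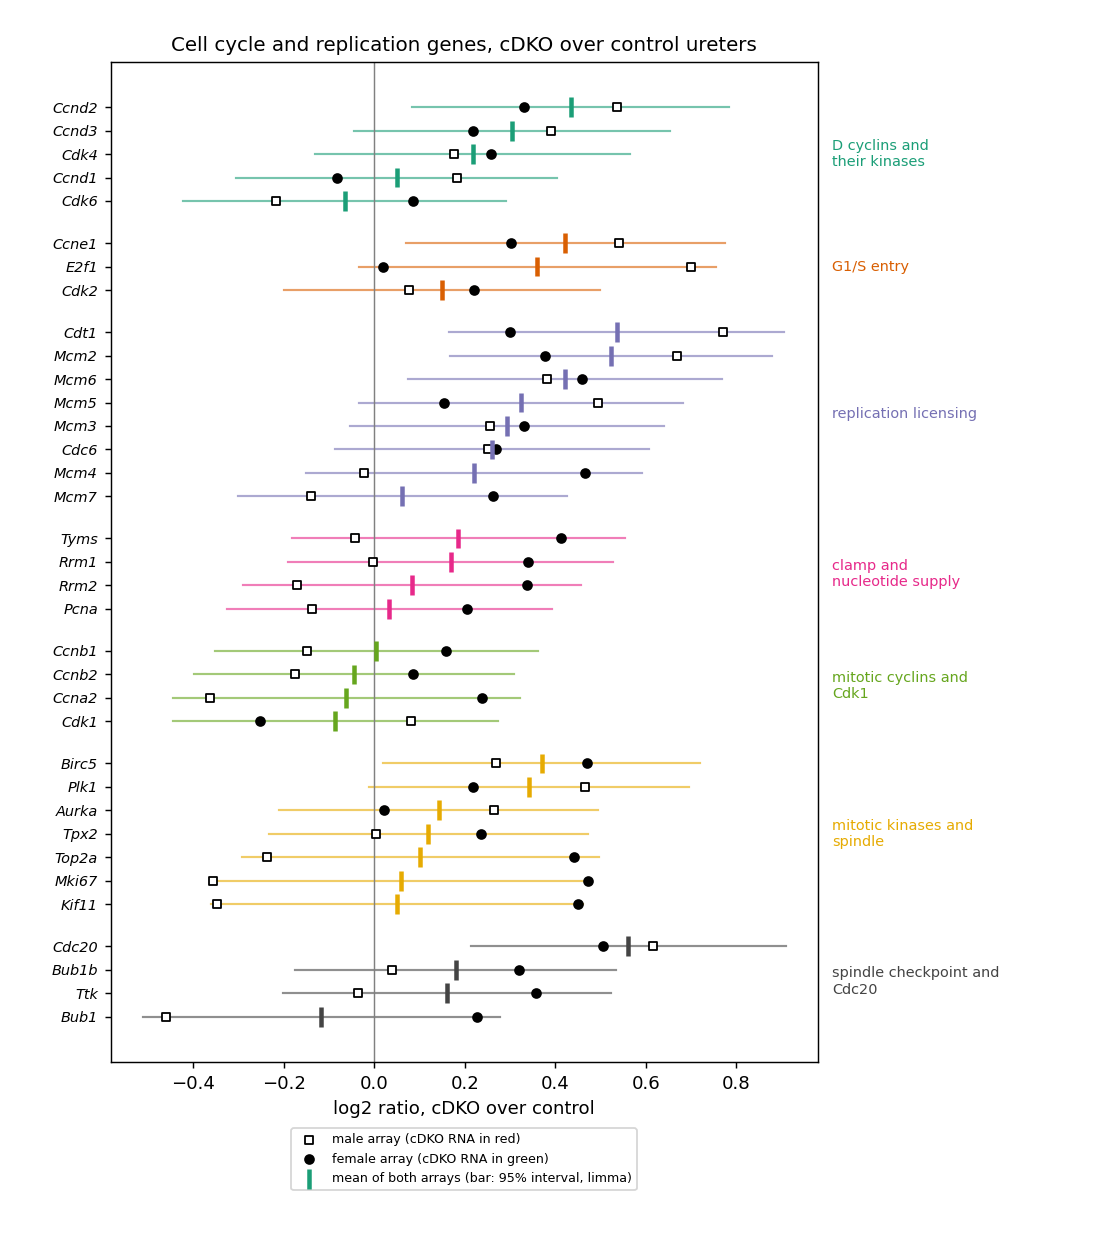
Log2 ratio of cDKO over control for the 35 measured genes, grouped by role; open squares are the male array, filled circles the female array, coloured ticks their mean and coloured bars the 95% interval from limma. The G1/S and most licensing genes lie right of 0 on both arrays, while each nucleotide supply gene and each mitotic cyclin has its arrays on opposite sides of 0. Ratios are normalized with loess. Under median centring 3 of 4 nucleotide supply genes were higher on both arrays.

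Promoters of these genes carry short motifs tied to their timing: E2F sites in genes of the G1/S transition, and the CHR element and CCAAT boxes in genes of G2 and mitosis. RefSeq promoters (GRCm38.p6) were matched for 30 of the 37 genes, and the 250 bases before the start were searched on both strands. Ccnd1, Ccnd2, Ccne2, Ccna2, Aurkb, Mcm4 and Tpx2 had no entry in the table used. An E2F-type match (TTTGGCGC, TTTCGCGC or TTTCCCGC, where matches on opposite strands can overlap) was present in 6 of 30 promoters, or 20.0%, against 1.78% of 27025 genes. Those 6 were Cdk2, Cdc6, Mcm5, Mcm6, Mcm7 and Cdk1, so 4 of the 7 licensing genes with a promoter were among them. CCAAT was found in 22 of 30 (73.3%, against 37.5% of all genes) and the CHR letters TTTGAA in 7 of 30 (23.3%, against 18.3%).

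Promoters are shown for licensing genes with E2F matches (Mcm6, Mcm5), for the gene with the highest ratio (Cdc20), and for mitotic genes whose arrays went opposite ways (Top2a, Kif11). Each is the strand of the gene from 5′ to 3′, with capitals marking E2F, CHR and CCAAT matches or their reverse complements.
Mcm6, chr1:128359706-128359955, minus strand: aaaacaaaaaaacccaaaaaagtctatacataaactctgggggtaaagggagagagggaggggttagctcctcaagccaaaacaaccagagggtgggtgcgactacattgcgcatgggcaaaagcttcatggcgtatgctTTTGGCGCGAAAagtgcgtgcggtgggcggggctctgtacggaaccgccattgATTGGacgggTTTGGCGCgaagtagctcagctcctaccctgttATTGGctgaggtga
Mcm5, chr8:75109259-75109508, plus strand: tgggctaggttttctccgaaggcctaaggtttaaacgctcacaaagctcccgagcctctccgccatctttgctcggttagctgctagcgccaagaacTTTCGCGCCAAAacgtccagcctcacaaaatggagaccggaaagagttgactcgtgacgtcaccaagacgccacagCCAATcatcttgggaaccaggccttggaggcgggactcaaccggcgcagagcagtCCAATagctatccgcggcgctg
Cdc20, chr4:118437344-118437593, minus strand: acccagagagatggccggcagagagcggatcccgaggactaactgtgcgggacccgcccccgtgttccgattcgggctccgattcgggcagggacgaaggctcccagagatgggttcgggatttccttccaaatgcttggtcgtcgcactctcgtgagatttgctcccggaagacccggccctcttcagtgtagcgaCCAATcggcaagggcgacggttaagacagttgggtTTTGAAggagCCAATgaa
Top2a, chr11:99024190-99024439, minus strand: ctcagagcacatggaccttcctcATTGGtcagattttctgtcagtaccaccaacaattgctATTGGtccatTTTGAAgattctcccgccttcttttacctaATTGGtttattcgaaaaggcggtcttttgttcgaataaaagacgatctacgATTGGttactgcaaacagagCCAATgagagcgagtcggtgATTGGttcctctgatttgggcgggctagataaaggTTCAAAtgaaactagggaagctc
Kif11, chr19:37376132-37376381, plus strand: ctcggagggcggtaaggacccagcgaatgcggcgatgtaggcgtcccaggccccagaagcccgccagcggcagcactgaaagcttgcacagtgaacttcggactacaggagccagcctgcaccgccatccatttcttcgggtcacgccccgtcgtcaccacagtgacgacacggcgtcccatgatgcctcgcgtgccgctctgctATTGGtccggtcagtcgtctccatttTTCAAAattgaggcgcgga
In Mcm6 an overlapping pair of E2F matches starts 110 and 106 bases before the start and a further match 47 bases before it. In Mcm5 the overlapping pair starts at 153 and 149 bases. Cdc20 and Kif11 have a CHR match close to the start, at 18 and 19 bases, and Top2a has CHR matches at 23 and 179 bases and 6 CCAAT boxes. Among genes higher on both arrays 4 of 16 promoters held an E2F match (25.0%) and 2 of 16 a CHR match (12.5%), while among the genes with opposite signs 2 of 14 (14.3%) and 5 of 14 (35.7%) did. These letters describe the windows and are no evidence of binding.

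Among the D-type cyclins and their kinases, 3 of 5 genes were higher in cDKO RNA on both arrays, and the group's median log2 ratio was 0.22. Under median centring in place of loess 0 of 5 were higher on both arrays and 4 were lower on the female array, while the group's median of means was 0.24. Ccnd2, the cyclin D2 gene, had processed signals of 39861 (male) and 31680 (female) in cDKO RNA, against 26894 and 23851 in control RNA. Both cDKO values lay above both control values, and the mean log2 ratio was 0.43 (interval 0.083 to 0.785; limma, adjusted p = 0.193). Ccnd3, cyclin D3, had 22418 and 16601 in cDKO RNA, against 16288 and 14473 in control RNA, again without overlap (mean log2 ratio 0.30, adjusted p = 0.409). Its other probe gave 0.54 (male) and 0.25 (female). Ccnd1, cyclin D1, had 16282 and 10555 in cDKO RNA, against 14337 and 11583 in control RNA. There the genotypes overlapped and the arrays disagreed, at 0.18 and -0.08. Cdk4, the kinase that these cyclins activate, was at 0.18 and 0.26, and 2 further probes for it also lay above 0 on both. Cdk6, its close relative, was at -0.22 and 0.09, from dim spots of 249.6 and 172 in cDKO RNA and 287.5 and 162.5 in control RNA.

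The genes of the G1/S transition lay above 0 on both arrays in 3 of 3 measured cases, with a median log2 ratio of 0.36. Ccne1, cyclin E1, which drives S-phase entry with Cdk2, had 6238 (male) and 4684 (female) in cDKO RNA, against 4359 and 3805 in control RNA. The genotypes did not overlap, and the mean log2 ratio was 0.42 (interval 0.07 to 0.775; limma, adjusted p = 0.212). A further Ccne1 probe gave 0.31 and 0.33. E2f1, an activating E2F factor, had 1612 and 1056 in cDKO RNA, against 975 and 1023 in control RNA. Its ratio rested on the male array, with 0.70 there and 0.02 on the female array (mean 0.36 ± 0.48 SD, n = 2; adjusted p = 0.379). Cdk2, the kinase of cyclins E and A, was at 0.08 and 0.22.

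The replication licensing genes had all 8 means above 0, with 6 genes higher on both arrays and a median log2 ratio of 0.31. Cdt1, which brings the Mcm helicase to origins, had 5016 (male) and 3383 (female) in cDKO RNA, against 2880 and 2766 in control RNA. Mcm2, a subunit of that helicase, had 5444 and 3645 in cDKO RNA, against 3165 and 2872 in control RNA. Both genes were higher in cDKO RNA on each array and without overlap, and the male ratios, 0.77 for Cdt1 and 0.67 for Mcm2, exceeded the female ones, 0.30 and 0.38. Their means were 0.54 (interval 0.166 to 0.905; limma, adjusted p = 0.116) and 0.52 (interval 0.167 to 0.878; adjusted p = 0.109). Mcm6 had 20827 and 17875 in cDKO RNA, against 15507 and 13356 in control RNA, with ratios of 0.38 and 0.46 (adjusted p = 0.205). Its arrays lay close together. Mcm5 was at 0.49 and 0.15, Mcm3 at 0.26 and 0.33, and Cdc6, the ATPase that loads the helicase together with Cdt1, at 0.25 and 0.27. Mcm4 was at -0.02 and 0.47, and Mcm7 at -0.14 and 0.26. With the scanner's processed signals and with the deposited value table all 8 licensing genes were higher on both arrays, and under median centring 7 were. In Mcm7 the cDKO signals of 25121 and 20972 overlapped the control signals of 25036 and 17158. The 6 subunits form 1 complex, and their mean log2 ratios spanned 0.06 to 0.52.

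With loess, the genes that supply the fork with its clamp and deoxynucleotides were lower in cDKO RNA on the male array and higher on the female array in 4 of 4 cases. Under median centring 0 of 4 were lower on the male array, and 3 of 4 were higher on both. Pcna, the sliding clamp, was at -0.14 and 0.21. Rrm1 and Rrm2, the subunits of ribonucleotide reductase, were at -0.0018 and 0.34, and at -0.17 and 0.34. Tyms, thymidylate synthase, was at -0.04 and 0.41, with 936.5 (male) and 886 (female) in cDKO RNA against 987.2 and 651.2 in control RNA. In Tyms the 2 cDKO signals lay between the 2 control signals, the male control being the highest and the female control the lowest of the 4. That order is of signals not corrected for the brighter male array. The group's mean ratios lay between 0.03 and 0.19.

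Mitotic cyclins and Cdk1 had the lowest median log2 ratio of the 7 groups, -0.05 (0.10 under median centring), and 0 of 4 genes had the same sign on both arrays. Under median centring all 4 were lower on the female array and 0 on the male array. Ccna2, cyclin A2, had 20353 (male) and 17847 (female) in cDKO RNA, against 25968 and 15489 in control RNA. The control values enclosed the cDKO values, without a correction for the brighter male array. Its ratios were -0.36 and 0.24. Ccnb1 and Ccnb2, the B-type cyclins that trigger mitosis, were at -0.15 and 0.16, and at -0.18 and 0.09. All 3 Ccnb1 probes were lower in male and higher in female cDKO RNA. Cdk1, the mitotic kinase, went the other way: it had 1483 and 1097 in cDKO RNA, against 1424 and 1290 in control RNA, for ratios of 0.08 and -0.25. A further kept Cdk1 probe gave -0.0047 and -0.26.

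Among kinases and spindle proteins all 7 measured genes were higher on the female array, and 4 were higher on both. Under median centring 2 were lower on the female array, and 5 were higher on both. Birc5, survivin, a subunit of the chromosomal passenger complex, had 29814 (male) and 25306 (female) in cDKO RNA, against 24378 and 18155 in control RNA. Its genotypes did not overlap, and the mean log2 ratio was 0.37 (interval 0.019 to 0.721; limma, adjusted p = 0.290). Its other kept probes averaged 0.18 each (adjusted p of 0.689 and 0.693), and the mean over its probes was 0.24 (adjusted p = 0.516). Plk1, a kinase of mitotic entry, had 4790 and 3298 in cDKO RNA, against 3262 and 2842 in control RNA (mean 0.34, adjusted p = 0.344). Aurka, the Aurora kinase of the spindle poles, was at 0.26 and 0.02, and Tpx2, its activator, at 0.003 and 0.24. Kif11, the motor that separates spindle poles, had 1980 and 2119 in cDKO RNA, against 2518 and 1529 in control RNA. Mki67, the proliferation antigen Ki-67, had 17869 and 17760 in cDKO RNA, against 22272 and 13086 in control RNA. In both genes the processed cDKO signals lay close together and the control signals on either side, but these signals are not corrected between arrays. Over all genes the median log2 of male over female signal was 0.41 in cDKO RNA and 0.37 in control RNA. Less those medians, Mki67 stood at -0.40 in cDKO RNA and 0.40 in control RNA, and Kif11 at -0.51 and 0.35. The cDKO RNAs were then no closer together than the control RNAs. Their ratios were -0.35 and 0.45 for Kif11, -0.36 and 0.47 for Mki67, and -0.24 and 0.44 for Top2a, the topoisomerase that untangles sister chromatids. The Mki67 probe lies at chr7:142881591-142881650 on mm9, minus strand, and the gene's other probe gave -0.45 and 0.48.

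Of the checkpoint genes and Cdc20, all 4 were higher on the female array and 2 on both. Cdc20, which activates the ubiquitin ligase that starts anaphase, had the highest mean of the set. Its probe lies at chr4:118105534-118105593 on mm9, on the minus strand as the file gives it. It had 21048 (male) and 15584 (female) in cDKO RNA, against 13345 and 11390 in control RNA, without overlap. Its ratios of 0.62 and 0.51 gave a mean of 0.56 (interval 0.213 to 0.909; limma, adjusted p = 0.0725), or 1.48-fold with an interval of 1.16 to 1.88. Bub1b, a checkpoint kinase-like protein, was at 0.04 and 0.32, and Ttk, the checkpoint kinase Mps1, at -0.04 and 0.36. Bub1, the kinase that recruits checkpoint proteins to kinetochores, had 2715 and 2485 in cDKO RNA, against 3831 and 2121 in control RNA. It was printed in many spots. On the male array 8 spots averaged -0.46 with an SD of 0.034, and on the female array 9 spots averaged 0.23 with an SD of 0.033. These SDs are the technical spread within 1 array and say nothing of the spread between RNAs.

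**Figure D2:**
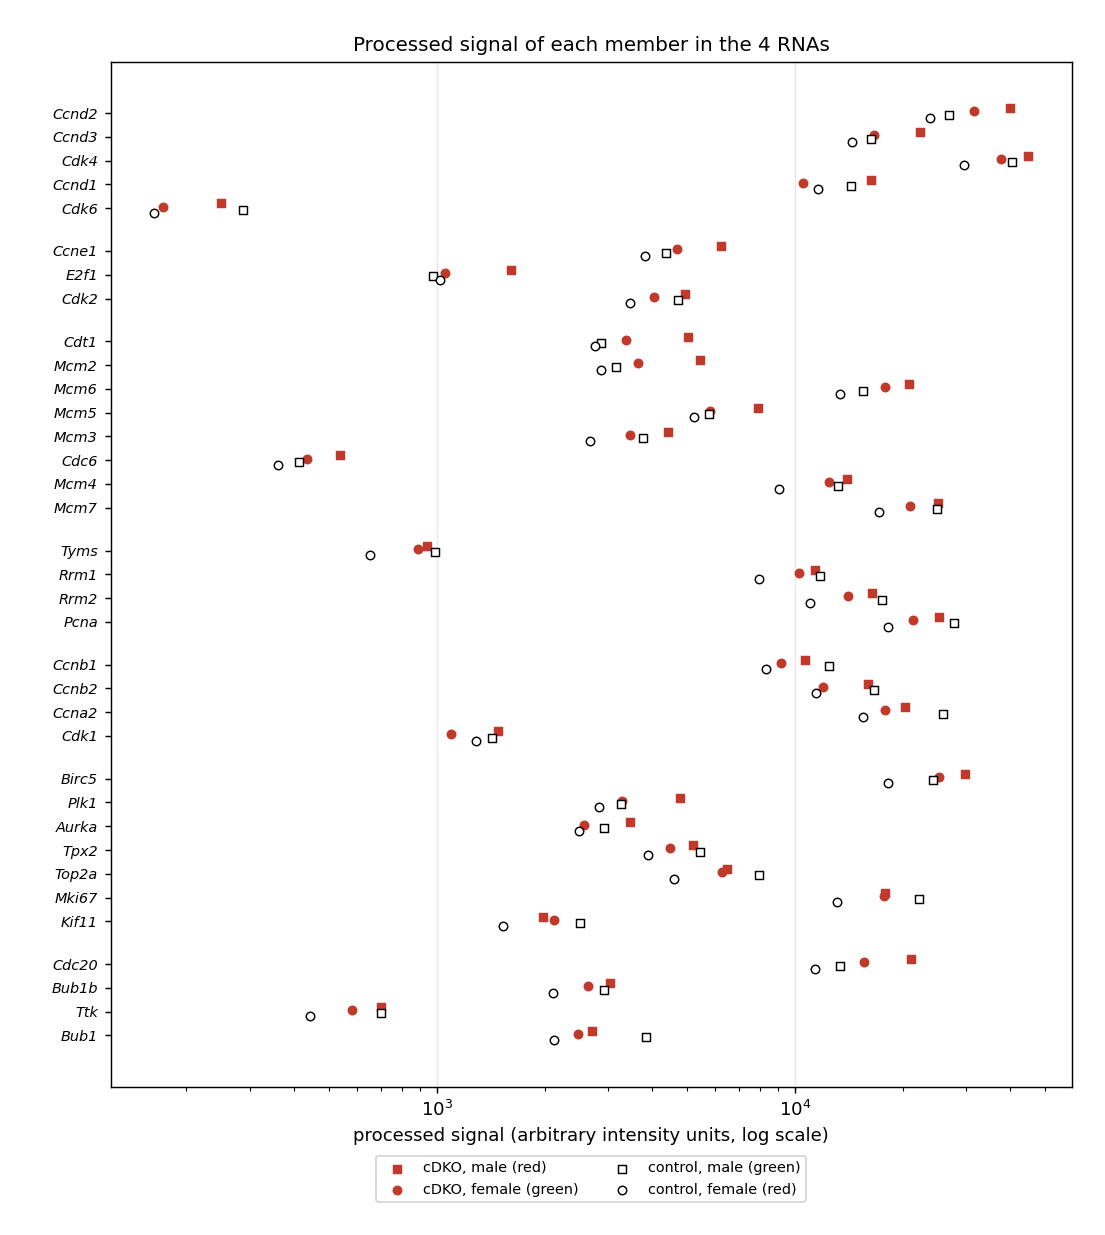
Processed signal (arbitrary units, log axis) of each gene in the 4 RNAs; filled red symbols are cDKO, open symbols control, squares male and circles female. For Cdc20, Mcm2, Cdt1, Mcm6, Ccnd2 and Ccne1 both red symbols lie right of both open ones, while for Mki67, Kif11, Top2a, Bub1 and Ccna2 the male control is highest and the female control lowest. Signals are not corrected between the arrays, and the male array was the brighter over all genes.

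The arrays disagreed on many of the later genes, and the direction of the disagreement depended on the normalization. Under median centring 2 of the 35 genes were lower on the male and higher on the female array, and 12 went the opposite way. Those 12 included all 4 of the mitotic cyclins and Cdk1. With loess, 15 of the 35 were lower in cDKO RNA on the male array and higher on the female array (42.9%, background 21.5%). The opposite way went 2, Ccnd1 and Cdk1 (5.71%, background 18.7%). On the male array alone 20 genes were higher (background 50.5%), and on the female array alone 33 were (background 53.3%). None of the 15 was in the G1/S group, 2 were licensing genes, and the rest were Cdk6, the nucleotide supply genes and genes of the G2 and mitotic phases. The largest differences, male minus female, were -0.83 for Mki67, -0.80 for Kif11, -0.69 for Bub1, -0.68 for Top2a and -0.60 for Ccna2. With 1 array for each sex, no difference between the arrays could be tested, and sex and dye cannot be told apart in it.

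Within a genotype, the male and female RNAs can be set beside each other as log2 of male over female processed signal, less the median over all genes, which was 0.41 in cDKO RNA and 0.37 in control RNA. Mki67 stood at -0.40 in cDKO RNA and 0.40 in control RNA, Kif11 at -0.51 and 0.35, Bub1 at -0.28 and 0.49, and Top2a at -0.36 and 0.41. Relative to all genes, these late genes were lower in male than in female cDKO RNA and higher in male than in female control RNA. Cdt1, at 0.16 in cDKO RNA and -0.31 in control RNA, and E2f1, at 0.20 and -0.44, stood the other way round. The male and female RNAs of a genotype were read in different dyes on different arrays, so these values are descriptions. They largely restate the difference between the arrays and do not show in which of the RNAs it lies.

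**Figure D3:**
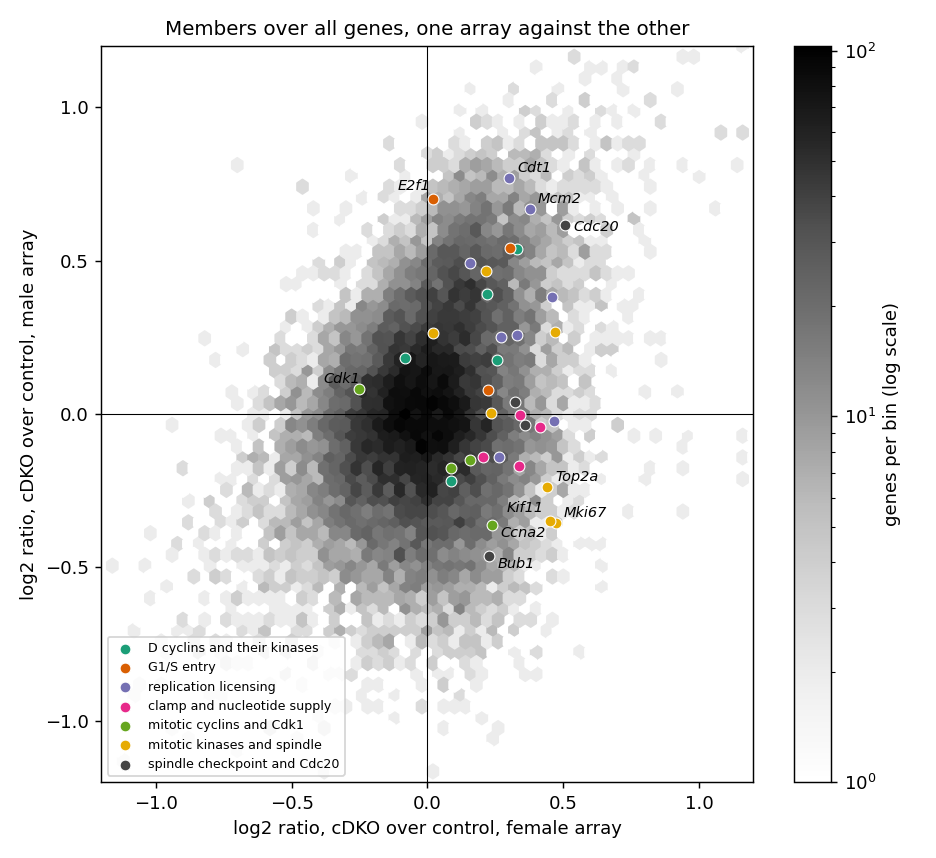
Log2 ratio of cDKO over control on the female array (x) and the male array (y). Hexagons show, on a grey log scale, those of the 23349 genes that lie within the axes, and genes beyond the axes are not drawn. Coloured points are the 35 genes by role. All 3 G1/S genes and 6 of 8 licensing genes lie in the upper right, and Bub1, Ccna2, Kif11, Mki67 and Top2a in the lower right.

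The split between the arrays depended on the loess step, which removes a dye difference that varies with brightness. With median centring in its place the median log2 ratio over all genes moved to 0.22 (male) and -0.02 (female), so single-array signs are given both against 0 and against those values. Against 0, 2 genes were lower in male and higher in female cDKO RNA and 12 went the opposite way, compared with 15 and 2 under loess. Against the all-gene medians the counts were 4 and 11, compared with 16 and 2 under loess. Kif11, at 0.05 and 0.44, and Bub1, at -0.03 and 0.20, kept a lower male than female ratio, with differences of -0.39 and -0.24. Mki67 stood at 0.28 and 0.03, Top2a at 0.26 and 0.34 (difference -0.079), and Ccna2 at 0.28 and -0.21. Cdt1 stood at 1.22 and 0.25, and Ccnd2 at 1.23 and -0.27. The mean over the exchanged dyes kept its lean: 34 of 35 means were above 0, with a median of 0.34 against 0.066 over all genes. The licensing median was 0.50 and the D cyclin median 0.24, while the median of mitotic cyclins and Cdk1 turned to 0.10, against -0.05 with loess. The medians of the other role groups were above 0 in all 10 settings run, several of which leave a gene's ratios unchanged. The scanner's own processed signals, also dye-normalized along intensity, kept the split, with 14 genes lower in male and higher in female cDKO RNA.

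**Figure D4:**
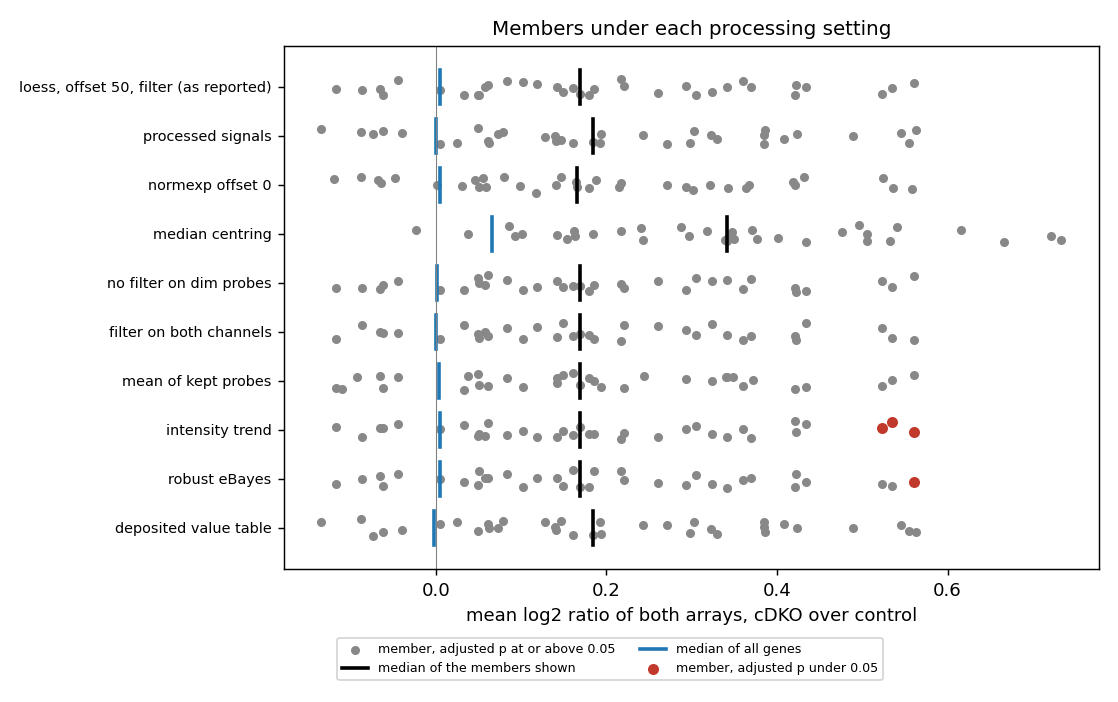
Mean log2 ratio of cDKO over control for each of the 35 genes under 10 processing settings; grey points did not pass the test, red points did (adjusted p under 0.05), and black and blue bars are the medians of the genes shown and of all genes. The gene median lies right of the all-gene median in every setting shown, and points pass the test only with an intensity trend (3) and robust eBayes (1).

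Other genes of the pathway were also measured. Of 150 further genes in 8 lists, 149 were measured, and 0 passed the test (limma, adjusted p under 0.05). At an unadjusted p under 0.05, 18 were higher (12.1%, against 9.64% of all genes) and 2 lower (1.34%, against 6.4%). On both arrays 59 were higher (39.6%, against 31.8%) and 20 lower (13.4%, against 28.0%), and the median log2 ratio was 0.05. Topbp1, which activates origin firing and the checkpoint kinase ATR, had 10955 (male) and 9064 (female) in cDKO RNA, against 8568 and 4421 in control RNA, with ratios of 0.34 and 1.01 (adjusted p = 0.0511). Uhrf1, which keeps DNA methylation through replication, had 11527 and 9304 in cDKO RNA, against 7968 and 6431 in control RNA, with 0.57 and 0.56 (adjusted p = 0.0693). Both genes were without overlap between the genotypes.

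Among fork and polymerase genes 17 of 27 were higher on both arrays (63.0%) and 2 lower (7.41%), with a median of 0.13. Prim2, a primase subunit, was the lowest there with 1 sign, at -0.23 (adjusted p = 0.568). Among mitotic entry and ubiquitin ligase genes 9 of 15 were higher and 1 lower (6.67%), with a median of 0.22. The shares over all genes were 31.8% and 28.0%. Ccnf, cyclin F, was at 0.41 in the mitotic entry list (adjusted p = 0.221), and Cks2, a small Cdk1 partner, stood at -0.23 (adjusted p = 0.569). The origin and helicase list was centred near 0, with a median of 0.013, and its lowest gene with 1 sign on both arrays was Orc4l, a subunit of the origin recognition complex, at -0.45 (adjusted p = 0.191). In the E2F, RB and MuvB list E2f8, a repressing E2F factor, was at 0.48 (adjusted p = 0.140) and Rbl2, the p130 pocket protein, at -0.21 (adjusted p = 0.641). The medians of spindle and kinetochore genes were -0.14 (male) and 0.15 (female), against 0.35 and 0.02 under median centring. Cdca5, sororin, which holds sister chromatids together, was at 0.44 (adjusted p = 0.194) and Ckap2, a spindle protein, at -0.44 (adjusted p = 0.208).

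Condensin and cohesin genes, which shape and hold mitotic chromosomes, had array medians further apart than the other 7 lists, though not under median centring (0.17 and 0.06). With loess all 12 were above 0 on the female array, with a median of 0.17, and 10 of 12 were below 0 on the male array, with a median of -0.35. Smc4 was at -0.71 and 0.0027, Ncapg at -0.67 and 0.47, and Ncapd2 at 0.38 and 0.27. Ncaph, also of condensin, was at 0.12 and 0.33. In the DNA damage list Fanca, of the Fanconi repair complex, was at 0.44 (adjusted p = 0.218) and Mdm2, the p53 ligase, at -0.21 (adjusted p = 0.618). Of the 7 measured CDK inhibitors, which brake the kinases above, Cdkn1c (p57) had 57554 and 39065 in cDKO RNA, against 33204 and 33244 in control RNA. Its ratios were 0.78 and 0.16 (adjusted p = 0.208). Cdkn1a (p21) was at -0.04 and -0.28, and Cdkn2d (p19) at -0.21 and -0.16.

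**Figure D5:**
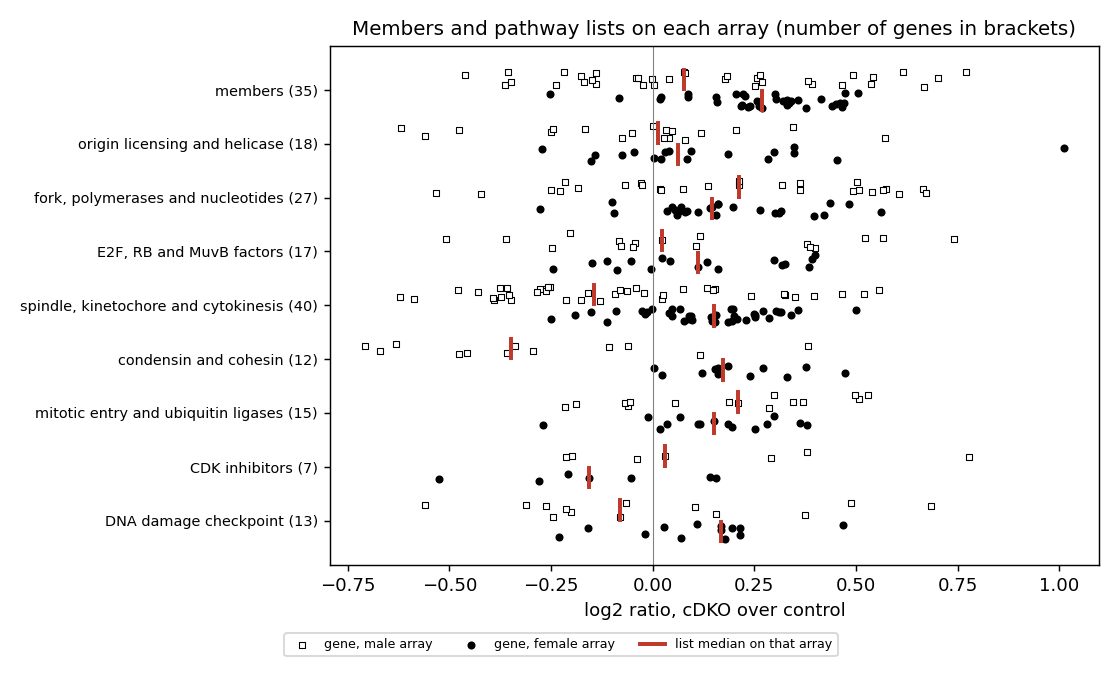
Log2 ratio of cDKO over control for each gene of the 35 and of the 8 pathway lists, with the number of genes in brackets; open squares are the male array, filled circles the female array and red bars the list medians. The condensin and cohesin medians lie furthest apart, at -0.35 and 0.17.

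Markers of several cell types moved beside these genes, and their part in the result was not tested. Unless another setting is named, the counts called below stand against 2.18% of all genes called higher and 2.27% called lower. Of 11 measured nephron and kidney markers 7 rose (limma), led by Cdh16 at 3.52 (male) and 1.37 (female), and the summed signals were 19631 (male) and 12944 (female) in cDKO RNA against 12922 and 11093 in control RNA. Of 8 mesenchymal markers 2 rose, Tbx18 and Bmp4, and the sums were 83646 and 70557 in cDKO RNA against 56196 and 45499 in control RNA. The sums include Tbx18, whose locus carries the Cre allele in cDKO embryos only, so it is no neutral marker of mesenchyme here. Urothelial markers had 0 of 14 called (4 higher and 0 lower at an unadjusted p under 0.05), with sums of 493794 and 396098 in cDKO RNA against 400493 and 329635 in control RNA. Red cell markers had 1 of 12 called higher, Slc4a1, with sums of 211961 and 171821 in cDKO RNA against 125621 and 123512 in control RNA. Endothelial markers had 2 of 10 called higher, Plvap and Cdh5, with sums of 57461 and 39849 in cDKO RNA against 44501 and 32826 in control RNA. Leukocyte markers had 0 of 9 called (0 higher and 2 lower at an unadjusted p under 0.05), with sums of 30305 and 20829 in cDKO RNA against 34932 and 26101 in control RNA. Neuronal and glial markers had 0 of 9 called (1 higher and 1 lower at an unadjusted p under 0.05), with sums of 11441 and 7950 in cDKO RNA against 10410 and 9063 in control RNA. Cartilage markers had 2 of 7 called higher, Col2a1 and Col9a1, with sums of 12889 and 8292 in cDKO RNA against 6167 and 5633 in control RNA. As mean log2 ratios, the ends of the lists were -0.59 for Smtn and -2.75 for Tagln (smooth muscle), 0.81 for Tbx18 and -0.46 for Sox9 (mesenchyme, with Sox9 also lowest in cartilage), 0.58 for Krt5 and -0.32 for Trp63 (urothelium), and 2.45 for Cdh16 and -0.11 for Eya1 (kidney). They were 0.97 for Plvap and 0.06 for Emcn (endothelium), 0.62 for Hba-a1 and -0.48 for Hbb-y (red cells), -0.07 for Ptprc and -0.54 for Lyz2 (leukocytes), -0.37 for Stmn2 (the lowest of neurons and glia), and 1.29 for Col2a1 (cartilage). No marker was below background in all 4 RNAs. With the processed signals 3 kidney markers rose and 7 smooth muscle markers fell, and the calls of mesenchymal, endothelial, red cell and cartilage markers were lost. Across the array 135 genes were called higher and 210 lower from those signals. With robust eBayes 4 of 11 kidney markers rose, against 2.66% of all genes called higher. With the filter on both channels 5 of 9 rose, where 637 genes were called higher across the array. The deposited value table gave no call in any marker list.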

How the data were processed

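Total RNA of ureters was measured on 2 arrays of 1 slide with 1 scan. Per the file headers and the submitters' processing notes, Agilent Feature Extraction 10.7.3.1 read the spots, and probe coordinates are on mm9. The deposited mean and background intensity values are not normalized, and for the deposited processed signal the program had subtracted background and normalized the dyes within each array. The deposited log10 ratio is red over green, and deposited 0 or 1 flags mark spots as outliers, saturated or well above background. As deposited, the authors' value table holds a score of unstated scale: its median was 1 on both arrays, its values read as a signed fold of cDKO over control, and it had a correlation of 0.740 and 0.680 with the turned processed ratios.

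Here normexp with an offset of 50 corrected the mean signals, and loess normalized each array (limma 3.58.1, R 4.3.3), with the 1377 control spots and outlier spots at weight 0. Ratios were turned to cDKO over control as log2, and spots of a probe were averaged. A probe was kept where 1 genotype's channel was well above background on both arrays, for at least 0.5 of their spots, leaving 29274 of 39429 probes. The mean ratio was tested with lmFit and eBayes (two-sided, Benjamini-Hochberg over all kept probes, 1 residual and 13.9 prior degrees of freedom), with 95% intervals from the same fit. A gene was taken by its brightest probe, which gave 23349 genes. Of 43020 gene spots, 72.1% to 81.6% per channel passed the background flag, and the number of arrays limits the precision. The members, lists and tests were chosen with earlier results of these data known. All members are named. From each pathway list the called genes and the highest and lowest gene with 1 sign on both arrays are named, and from each marker list the highest and lowest gene and the called genes where 3 or fewer were called; a gene that the rule takes is not reported here. Smc4, Ncapg and Cdkn1a were chosen after their values were seen. The fit was tested on simulated data.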

Additional observations from a re-analysis of the deposited data

Results flagged for a closer look

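For 17 genes the 2 arrays gave opposite signs, which is why they are listed. The difference between the arrays was not tested, since each sex has 1 array, and sex and dye cannot be told apart in it. As male minus female log2 ratio of cDKO over control, 15 were negative: -0.83 for Mki67, -0.80 for Kif11, -0.69 for Bub1, -0.68 for Top2a, -0.60 for Ccna2, -0.51 for Rrm2, -0.49 for Mcm4, -0.455 for Tyms, -0.40 for Mcm7, -0.39 for Ttk, -0.34 for Pcna, -0.34 for Rrm1, -0.31 for Ccnb1, -0.30 for Cdk6 and -0.26 for Ccnb2. The difference was 0.26 for Ccnd1 and 0.33 for Cdk1. Over all genes the median size of the difference was 0.228, and over the 35 measured genes it was 0.303.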

How the results depend on the processing

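No mean of the 18 genes higher on both arrays changed sign under the alternatives run. Several of these could not change a sign. The intensity trend and robust eBayes alter only the variance, and the filter settings only which probes are tested. For these genes the deposited value table repeated the means of the processed signals. The means that did were those of Ccnb1 (-0.0396) and Ccnb2 (0.0051) with the processed signals and with the deposited value table, of Ccnb1 (-0.0930) with the mean of a gene's probes, and of Cdk1 (0.0926), Ccna2 (0.0379), Ccnb2 (0.10) and Bub1 (0.0857) under median centring, where the median of the genes was 0.34. Genes called higher numbered 3 with an intensity trend, Cdc20 (limma, adjusted p = 0.0097), Cdt1 (0.0350) and Mcm2 (0.0418), against 3.99% of all genes, and 1 with robust eBayes, Cdc20 (0.0495), against 2.66%. Calls in the pathway lists were all higher in cDKO RNA. With the filter on both channels 2 of 148 genes were called (Topbp1 and Uhrf1), and with the mean of probes 1 of 149 (Topbp1). Across the array 637 and 592 genes were called higher in those settings. With an intensity trend 5 of 149 were called (Chaf1a, Chaf1b, Rpa1, Topbp1 and Uhrf1), against 3.99% of all genes. With robust eBayes 2 of 149 were called (Topbp1 and Uhrf1), against 2.66%. Over all genes 1040 were called, 320 under median centring, 345 from the processed signals, 1595 with an intensity trend, and 0 with the deposited value table (limma, 2431 at an unadjusted p under 0.05). Leaving out 1 array left no test: the genes higher numbered 20 to 33, the genes lower 2 to 15, and the median was 0.077 to 0.27. In the other settings run 0 of the genes were called (limma), and the median lay between 0.16 and 0.18. No paired analysis was possible because each array already pairs cDKO with control RNA, so the ratios form 1 group. With 2 ratios normalized with loess, the intervals reached about 0.356 to either side of a gene's mean at the median.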
